A study of Mus musculus with 9 samples.

Results

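The genes examined here were 36 markers of blood and lymphatic endothelial cells, which line the vessels of the uterus, taken by gene symbol from a whole-uterus expression table of 31274 entries. Each of the 36 symbols had a row, and 35 of them were among the 14728 genes with a mean above 1 FPKM in at least 1 genotype, which were the genes tested. They comprised 5 genes of cell junctions, 7 other surface genes, 11 receptors and receptor partners, 6 transcription factors, 3 lymphatic genes and 4 genes of secreted proteins or enzymes. FPKM count fragments scaled to the exon length of the gene and to the size of the library, so levels of different genes can be set side by side per length.

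RNA-Seq was done on the uterus of C57BL/6 mice on pseudopregnancy day 4.5, when the uterus can receive an embryo, with 1 library per mouse from 4 *Wnk1fl/fl* controls and 5 *Wnk1d/d* mice. *Wnk1fl/fl* mice carry *Wnk1* alleles with loxP sites around exon 2 and no Cre, and *Wnk1d/d* mice carry the same alleles with a Cre recombinase under the progesterone receptor gene, which removes that exon. Virgin females aged 6 to 10 weeks were mated to vasectomized wild-type males, so no embryo was present in either group. The comparison asks how loss of the kinase WNK1 in progesterone receptor-expressing cells alters the transcripts of the receptive uterus. As a model it is limited in that this Cre also recombines in the ovary and pituitary, and that, by the study's account, the endothelial and immune cells of the uterus lack the progesterone receptor and so keep *Wnk1*. *Wnk1* itself ranged over 43.4 to 47.3 FPKM in *Wnk1fl/fl* and 29.9 to 33.9 FPKM in *Wnk1d/d* uteri, without overlap (log2 fold change -0.52, limma adjusted p = 0.0017), and this gene-wide value also counts the exons that Cre leaves in place.

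Blood endothelial cells hold on to each other through cadherin, claudin and immunoglobulin-family proteins at their contacts, take their cues from VEGF, angiopoietin, BMP, sphingosine 1-phosphate and adrenomedullin through surface receptors, and owe their identity to ETS, SOXF and TAL1-LMO2 transcription factors. Lymphatic endothelial cells derive from veins, are specified by *Prox1* and carry the VEGF-C receptor encoded by *Flt4* and the hyaluronan receptor encoded by *Lyve1*. In the uterus around implantation the endometrial vessels become permeable and grow.

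Promoter sequences are shown for 5 members that stand for the different outcomes described below, so that members that fell and a member that did not pass the test can be read side by side. RefSeq promoters on GRCm38.p6 (the mm10 assembly) were matched by symbol for 15 of the 36 members, using the first promoter listed for each gene and the 250 bases before its start. *Emcn*, *Tek*, *Kdr* and *Cldn5* fell in the *Wnk1d/d* uteri, and *Cd34* did not pass the test. Capitals mark AGGAAG or CCGGAA, letters that ETS factors such as ERG can bind, and AACAAT, letters that SOX factors can bind, and the sequences run 5′ to 3′ on the strand of the gene. Where the match is on the opposite strand the capitals read as the reverse complement of those letters.
Emcn, chr3:137340828-137341077, plus strand: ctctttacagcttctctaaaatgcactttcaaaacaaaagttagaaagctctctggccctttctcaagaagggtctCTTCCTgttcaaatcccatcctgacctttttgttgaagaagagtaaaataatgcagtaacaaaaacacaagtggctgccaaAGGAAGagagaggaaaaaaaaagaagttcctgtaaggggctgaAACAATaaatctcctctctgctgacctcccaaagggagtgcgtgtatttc
Tek, chr4:94739039-94739288, plus strand: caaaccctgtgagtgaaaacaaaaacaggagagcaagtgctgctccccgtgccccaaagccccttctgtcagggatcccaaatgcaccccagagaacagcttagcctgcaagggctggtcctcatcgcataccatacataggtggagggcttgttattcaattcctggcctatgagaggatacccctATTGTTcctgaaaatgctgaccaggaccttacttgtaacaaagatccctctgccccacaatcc
Kdr, chr5:75978456-75978705, minus strand: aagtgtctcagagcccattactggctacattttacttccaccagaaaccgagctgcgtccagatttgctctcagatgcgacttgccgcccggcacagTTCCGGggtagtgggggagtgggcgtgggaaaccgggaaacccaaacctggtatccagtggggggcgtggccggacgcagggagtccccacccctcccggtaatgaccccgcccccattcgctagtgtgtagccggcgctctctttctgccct
Cldn5, chr16:18776597-18776846, plus strand: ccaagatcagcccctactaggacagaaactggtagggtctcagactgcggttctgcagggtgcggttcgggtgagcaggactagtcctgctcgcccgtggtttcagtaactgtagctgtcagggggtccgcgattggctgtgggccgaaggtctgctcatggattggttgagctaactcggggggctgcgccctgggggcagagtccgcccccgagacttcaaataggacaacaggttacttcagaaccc
Cd34, chr1:194938571-194938820, plus strand: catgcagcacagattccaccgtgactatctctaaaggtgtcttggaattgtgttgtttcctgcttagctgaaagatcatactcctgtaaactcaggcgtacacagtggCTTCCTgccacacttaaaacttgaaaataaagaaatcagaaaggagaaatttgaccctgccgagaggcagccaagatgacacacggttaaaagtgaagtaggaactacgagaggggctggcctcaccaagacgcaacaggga

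On either strand, AGGAAG was present in 7 of the 15 member promoters (46.7%) and in 29.2% of 27025 RefSeq promoters of that length. CCGGAA was found in 1 member promoter, that of *Kdr* (6.67% against 12.2% of all promoters), and AACAAT in those of *Emcn* and *Tek* (13.3% against 9.65%). A core of these ETS letters cannot be counted under both spellings, since the base before GGAA differs. AGATAA, letters of GATA factors, stood in 6.67% of the member promoters and 10.3% of all, and CAGCTG, an E-box of the kind TAL1 can bind, in 13.3% and 12.8%. *Cldn5*, which fell, had none of the capitalised letters in this window, whereas *Cd34*, which did not pass the test, had AGGAAG on the opposite strand. A match is a run of letters and not a bound site.

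Of the 35 endothelial transcripts tested, 16 fell in the *Wnk1d/d* uteri, 1 rose and 18 did not pass the test. The log2 fold change was negative in 29 members and positive in 6, whereas 49.5% of all genes tested had a negative one, and the median was -0.57, beside 0.003 over all genes tested. A gene was a DEG when limma gave an adjusted p below 0.05 and the mean FPKM of the genotypes differed 1.5-fold or more. By this definition 15 members were lower DEGs, where 5.18% of all genes tested were, and 1 member, *Sox7*, was a higher DEG, where 5.09% were. The 16 members that fell on the adjusted p alone compare with 11% of all genes, and the 1 that rose with 11.1%. In 16 members every *Wnk1d/d* library was below every *Wnk1fl/fl* library, a pattern found in 10.6% of all genes, and in 1 member every *Wnk1d/d* library was above, found in 9.27%. The summed FPKM of the 36 members was 1775 to 1966 in the controls and 1084 to 1687 in *Wnk1d/d* uteri. In whole-uterus RNA, fewer endothelial cells and less of these transcripts per endothelial cell cannot be told apart.

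**Figure D1:**
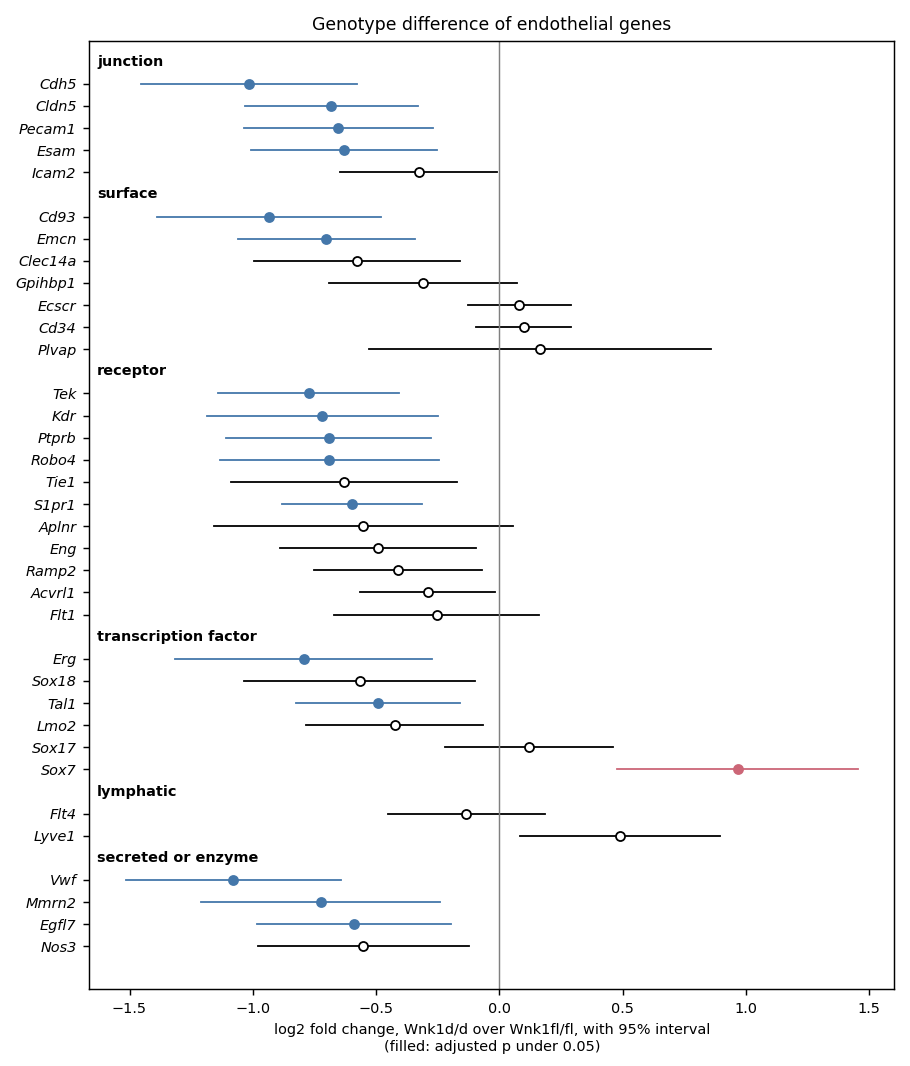
Genotype difference of the 35 tested endothelial genes by role, as the log2 fold change of *Wnk1d/d* over *Wnk1fl/fl* on log2(FPKM + 1) with its 95% interval; filled points have a limma adjusted p under 0.05. Junction genes, receptors and secreted proteins lie to the left of 0, down to -1.08 for *Vwf*, and *Sox7* alone is filled to the right, at 0.97.

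The counts depended on which mice were included, although the sign of the members' median did not. Leaving out 1 library at a time gave 6 to 20 lower DEGs among the members: 6 without *Wnk1d/d* replicate 1, 7 without *Wnk1d/d* replicate 3, 11 without *Wnk1d/d* replicate 4, 9 without *Wnk1d/d* replicate 5, 7, 6, 9 and 6 without *Wnk1fl/fl* replicates 1, 2, 3 and 4, and 20 without *Wnk1d/d* replicate 2. The share of all genes that were lower DEGs moved as well, from 3.39% without *Wnk1d/d* replicate 3 to 6.81% without *Wnk1d/d* replicate 2. Over the same fits the median of the members stayed between -0.67 and -0.40. Of the 17 members with an adjusted p under 0.05, *Vwf*, *Cdh5*, *Emcn* and *Sox7* kept it in each of 17 alternatives other than a replicate block, *Cldn5*, *Cd93*, *Tek* and *S1pr1* in 16, and the other 9 in 7 to 12 of those run.

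Of the 5 junction genes, 4 fell. *Cdh5*, on chr8:104101625-104144511 of mm10, encodes VE-cadherin, the adherens junction cadherin of endothelium. *Cdh5* had 80.6, 88.5, 94.3 and 87.9 FPKM in the *Wnk1fl/fl* and 29.2, 65.2, 35.6, 47.9 and 44.6 FPKM in the *Wnk1d/d* uteri. The highest *Wnk1d/d* value, in replicate 2, was below the lowest control value, and replicates 1 and 3 were under the level of any other mouse (log2 fold change -1.01, 95% interval -1.45 to -0.58, limma adjusted p = 0.0094). *Pecam1* had 89.2, 94.8, 89.8 and 96.3 FPKM in the *Wnk1fl/fl* and 38.7, 77.5, 53.6, 63.8 and 66.6 FPKM in the *Wnk1d/d* uteri. *Pecam1*, an adhesion molecule at endothelial contacts, likewise did not overlap between genotypes (log2 fold change -0.65, 95% interval -1.04 to -0.27, limma adjusted p = 0.026), and its call was lost without *Wnk1fl/fl* replicate 1 (adjusted p = 0.05 after rounding), 2 (0.057) or 4 (0.066) or *Wnk1d/d* replicate 3 (0.064).

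*Cldn5* had 50.9, 47.1, 44.7 and 69.3 FPKM in the *Wnk1fl/fl* and 27.2, 40.6, 27.7, 30.6 and 36.9 FPKM in the *Wnk1d/d* uteri. This tight junction claudin was highest in *Wnk1fl/fl* replicate 4, and again no *Wnk1d/d* library reached the controls (log2 fold change -0.68, limma adjusted p = 0.017). *Esam*, an adhesion molecule of endothelial tight junctions, ranged over 105 to 125 FPKM in *Wnk1fl/fl* and 52.5 to 94.1 FPKM in *Wnk1d/d* uteri, without overlap (log2 fold change -0.63, limma adjusted p = 0.028). *Icam2*, an adhesion ligand for leukocytes, overlapped, with 22.2 to 29.5 FPKM in *Wnk1fl/fl* and 16.3 to 27.8 FPKM in *Wnk1d/d* uteri, and did not pass the test (log2 fold change -0.33, limma adjusted p = 0.12). The 4 that fell were lower DEGs, and the median log2 fold change of the 5 genes was -0.65.

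**Figure D2:**
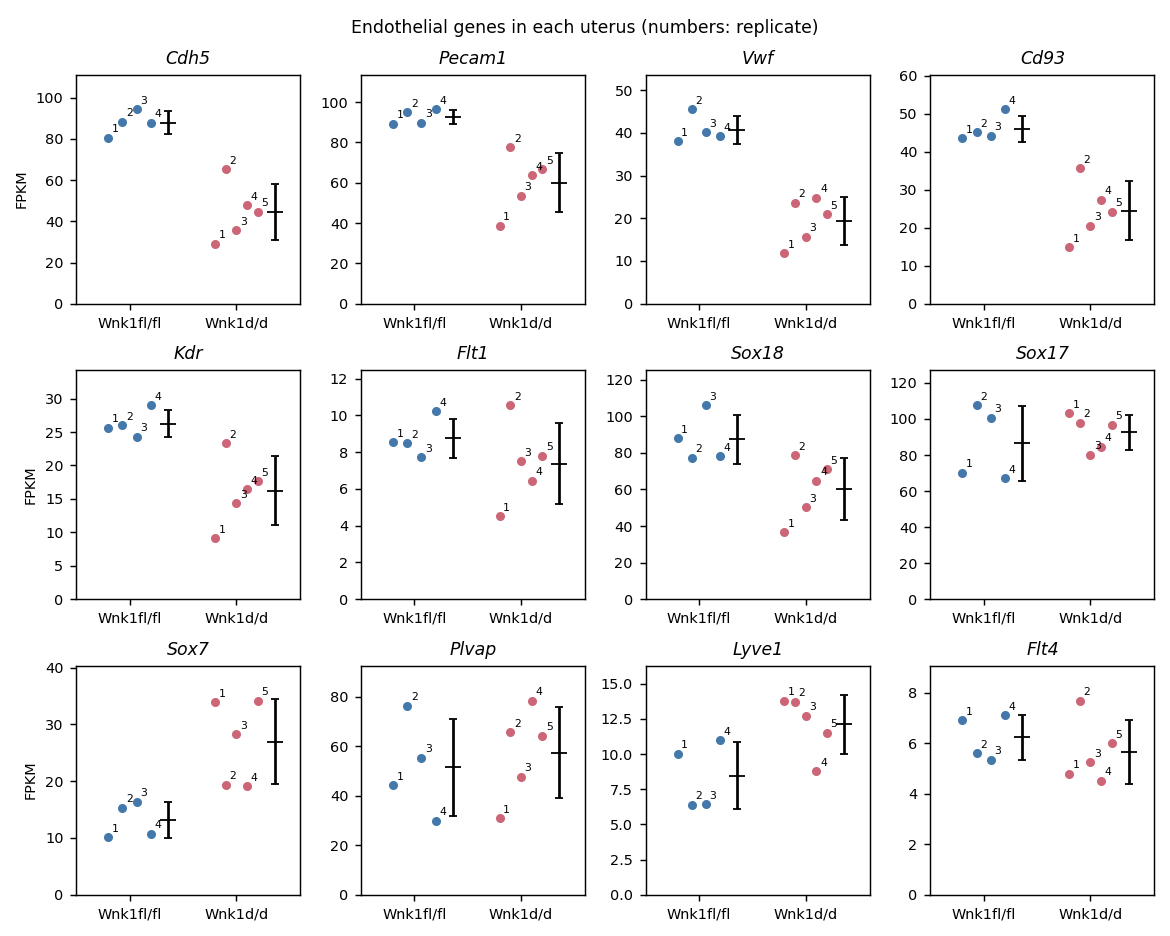
FPKM of 12 endothelial genes in each uterus; points are libraries numbered by replicate, and the bar and whiskers beside them are the mean and SD (n = 4 *Wnk1fl/fl*, n = 5 *Wnk1d/d*). *Cdh5*, *Pecam1*, *Vwf*, *Cd93* and *Kdr* separate the genotypes downward and *Sox7* upward, with *Wnk1d/d* replicate 1 the lowest library and replicate 2 the nearest to the controls for *Cdh5*, *Pecam1*, *Cd93* and *Kdr*.

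The 7 other surface genes divided. *Cd93*, a glycoprotein through which endothelial cells bind matrix, was the most reduced of them. *Cd93* had 43.6, 45.1, 44.2 and 51.1 FPKM in the *Wnk1fl/fl* and 14.9, 35.6, 20.5, 27.3 and 24.2 FPKM in the *Wnk1d/d* uteri. Every *Wnk1d/d* library was below the controls and replicate 1 was lowest (log2 fold change -0.93, 95% interval -1.39 to -0.48, limma adjusted p = 0.014). *Emcn*, a sialomucin of capillaries and veins, ranged over 74.3 to 90.8 FPKM in *Wnk1fl/fl* and 34.4 to 60.3 FPKM in *Wnk1d/d* uteri (log2 fold change -0.70, limma adjusted p = 0.016; exact permutation p = 0.0079, the smallest this design allows). *Clec14a*, a relative of *Cd93*, had 11.7 ± 1.76 FPKM (SD, n = 4) in *Wnk1fl/fl* and 7.7 ± 2.21 FPKM (SD, n = 5) in *Wnk1d/d* uteri, with an overlap through *Wnk1d/d* replicate 2 (log2 fold change -0.58, limma adjusted p = 0.053).

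*Gpihbp1*, which holds lipoprotein lipase on capillaries, had 16.1 ± 2.54 FPKM (SD, n = 4) in *Wnk1fl/fl* and 13 ± 3.06 FPKM (SD, n = 5) in *Wnk1d/d* uteri (log2 fold change -0.31, limma adjusted p = 0.21). The remaining 3 surface genes had positive estimates that did not pass the test. *Cd34* had 241, 227, 233 and 211 FPKM in the *Wnk1fl/fl* and 234, 243, 276, 213 and 257 FPKM in the *Wnk1d/d* uteri. *Cd34*, which stromal and other progenitor cells also carry, was the most abundant member, and its estimate was near 0 (log2 fold change 0.10, 95% interval -0.09 to 0.29, limma adjusted p = 0.42). *Ecscr*, an endothelial surface protein involved in migration, had 72.8 ± 3.08 FPKM (SD, n = 4) in *Wnk1fl/fl* and 77.5 ± 9.28 FPKM (SD, n = 5) in *Wnk1d/d* uteri (log2 fold change 0.08, 95% interval -0.13 to 0.29, limma adjusted p = 0.55). *Plvap* had 44.2, 76.4, 55.4 and 29.9 FPKM in the *Wnk1fl/fl* and 30.9, 65.6, 47.7, 78.4 and 64.2 FPKM in the *Wnk1d/d* uteri. *Plvap*, of the diaphragms of fenestrae and caveolae, spread widely within both genotypes, from the lowest value in *Wnk1fl/fl* replicate 4 to the highest in *Wnk1d/d* replicate 4 (log2 fold change 0.16, 95% interval -0.53 to 0.86, limma adjusted p = 0.72).

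All 11 receptors and receptor partners had negative estimates, with a median of -0.60. Of these, 5 were lower DEGs and 7 did not overlap between genotypes. *Kdr*, the main signalling receptor for VEGF-A, was lower in each *Wnk1d/d* library. *Kdr* had 25.6, 26, 24.3 and 29 FPKM in the *Wnk1fl/fl* and 9.13, 23.4, 14.4, 16.5 and 17.7 FPKM in the *Wnk1d/d* uteri. The gap between the lowest control and *Wnk1d/d* replicate 2 was small, and the other *Wnk1d/d* libraries were further down (log2 fold change -0.72, 95% interval -1.19 to -0.25, limma adjusted p = 0.038). Its call was lost without any 1 of the *Wnk1fl/fl* replicates 1 to 4 (adjusted p = 0.071, 0.071, 0.06 and 0.095) or *Wnk1d/d* replicates 3, 4 and 5 (0.084, 0.062 and 0.058), with log2 fold changes of -0.76 to -0.67. *Flt1*, which binds VEGF-A with high affinity and limits its supply to *Kdr*, ranged over 7.72 to 10.2 FPKM in *Wnk1fl/fl* and 4.51 to 10.6 FPKM in *Wnk1d/d* uteri, with *Wnk1d/d* replicate 2 above all controls, and did not pass (log2 fold change -0.25, limma adjusted p = 0.33).

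The angiopoietin receptor gene *Tek*, the gene of its partner, *Tie1*, and the phosphatase gene *Ptprb* had log2 fold changes of -0.77, -0.63 and -0.69. *Tek* encodes the receptor for angiopoietins. *Tek* had 19.7, 21.4, 23 and 22.9 FPKM in the *Wnk1fl/fl* and 8.38, 17, 10.9, 13.6 and 13.3 FPKM in the *Wnk1d/d* uteri. There was no overlap (log2 fold change -0.77, 95% interval -1.14 to -0.41, limma adjusted p = 0.013). Its partner *Tie1* also did not overlap, with 51.2 to 57.3 FPKM in *Wnk1fl/fl* and 20.9 to 48.1 FPKM in *Wnk1d/d* uteri, but was just short of the threshold (log2 fold change -0.63, limma adjusted p = 0.053). *Ptprb*, the endothelial tyrosine phosphatase that acts on TEK and VE-cadherin, had 9.64 ± 1.62 FPKM (SD, n = 4) in *Wnk1fl/fl* and 5.72 ± 1.85 FPKM (SD, n = 5) in *Wnk1d/d* uteri and was a lower DEG although *Wnk1d/d* replicate 2 lay within the control range (log2 fold change -0.69, limma adjusted p = 0.029).

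*Robo4*, a guidance receptor that stabilizes vessels, had 24.8 to 27.3 FPKM in *Wnk1fl/fl* and 9.58 to 23.1 FPKM in *Wnk1d/d* uteri and fell (log2 fold change -0.69, limma adjusted p = 0.035). *S1pr1*, the sphingosine 1-phosphate receptor that keeps endothelial junctions tight, had 16.3 to 20.6 FPKM in *Wnk1fl/fl* and 8.7 to 14.4 FPKM in *Wnk1d/d* uteri and fell with a narrow interval (log2 fold change -0.60, 95% interval -0.88 to -0.31, limma adjusted p = 0.013). The BMP co-receptor *Eng* (49.8 to 56.4 FPKM in *Wnk1fl/fl* and 23.4 to 49.6 FPKM in *Wnk1d/d* uteri) and *Ramp2* (146 to 179.6 FPKM in *Wnk1fl/fl* and 83.2 to 144 FPKM in *Wnk1d/d* uteri), which makes the adrenomedullin receptor with CALCRL, did not overlap between genotypes yet missed the adjusted threshold (log2 fold changes -0.49 and -0.41, limma adjusted p = 0.074 and 0.078). *Acvrl1*, the BMP receptor partnered by endoglin (log2 fold change -0.29, limma adjusted p = 0.11), and *Aplnr*, the apelin receptor (log2 fold change -0.55, limma adjusted p = 0.16), overlapped and did not pass. Of the exonic bases of *Ramp2*, 33.4% are shared with the annotated neighbour *Vps25*, and how fragments were divided between them is not given in the sources used here.

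Of the 6 transcription factors, 2 were lower DEGs, 1 was a higher DEG and 3 did not pass the test. *Erg*, the ETS factor that maintains endothelial identity, fell. *Erg* had 14.3, 12.7, 12.7 and 14.8 FPKM in the *Wnk1fl/fl* and 4.1, 13, 7.41, 7.52 and 7.23 FPKM in the *Wnk1d/d* uteri. *Wnk1d/d* replicate 2 lay inside the control range and the other *Wnk1d/d* libraries well below it (log2 fold change -0.79, 95% interval -1.31 to -0.27, limma adjusted p = 0.038). *Tal1*, a basic helix-loop-helix factor of blood and endothelium, was a lower DEG at a low level, 4.07 ± 0.446 FPKM (SD, n = 4) in *Wnk1fl/fl* and 2.64 ± 0.696 FPKM (SD, n = 5) in *Wnk1d/d* uteri (log2 fold change -0.49, limma adjusted p = 0.042). Its LIM-domain partner *Lmo2* had 52.7 ± 3.58 FPKM (SD, n = 4) in *Wnk1fl/fl* and 39.8 ± 9.42 FPKM (SD, n = 5) in *Wnk1d/d* uteri and did not pass (log2 fold change -0.42, limma adjusted p = 0.082).

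The SOXF factors *Sox7*, *Sox17* and *Sox18*, which act together in vascular development, differed in outcome, and of these *Sox7* passed the test. *Sox7* had 10.1, 15.3, 16.4 and 10.8 FPKM in the *Wnk1fl/fl* and 33.9, 19.3, 28.3, 19.1 and 34.2 FPKM in the *Wnk1d/d* uteri. *Sox7*, on chr14:63943673-63950732, was thus above every control in each *Wnk1d/d* library, and was highest in replicates 1 and 5 (log2 fold change 0.97, 95% interval 0.48 to 1.45, limma adjusted p = 0.016; exact permutation p = 0.0159). *Sox17* had 70.3, 108, 101 and 67.2 FPKM in the *Wnk1fl/fl* and 103, 97.8, 80.1, 84.6 and 96.8 FPKM in the *Wnk1d/d* uteri. The *Sox17* values overlapped (log2 fold change 0.12, 95% interval -0.22 to 0.46, limma adjusted p = 0.59), and this gene is also expressed in uterine epithelium.

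*Sox18* had 87.9, 77.4, 106 and 78.3 FPKM in the *Wnk1fl/fl* and 36.6, 78.6, 50.4, 64.9 and 71 FPKM in the *Wnk1d/d* uteri. *Sox18* was lowest in *Wnk1d/d* replicates 1 and 3 and overlapped through replicate 2 (log2 fold change -0.57, 95% interval -1.04 to -0.10, limma adjusted p = 0.078). Within a library, the ratio of *Sox7* to *Sox18* FPKM was 0.115 to 0.198 in the controls and 0.246 to 0.926 in *Wnk1d/d* uteri, highest in *Wnk1d/d* replicate 1, which had the lowest levels of most other members. The ratio was chosen after the values were seen and was not tested. Annotated exons on the opposite strand cover 16.8% of the exonic bases of *Sox17*, and without strand information reads of both strands cannot be told apart. Whether strand was used in counting is not given in the sources used here.

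Of the 3 lymphatic genes, none of the 2 tested was called by limma, and 1 of them, *Lyve1*, had an unadjusted p under 0.05. In the same fit 5662 of the 14728 genes tested had an unadjusted limma p under 0.05, in either direction. *Lyve1* had 10, 6.39, 6.45 and 11 FPKM in the *Wnk1fl/fl* and 13.8, 13.7, 12.7, 8.78 and 11.5 FPKM in the *Wnk1d/d* uteri. Of the *Wnk1d/d* libraries, 4 were above all controls and replicate 4 was within their range (log2 fold change 0.49, 95% interval 0.08 to 0.90, limma adjusted p = 0.079). *Lyve1* was called in 2 of 17 alternatives other than a replicate block, with limma adjusted p up to 0.17 among the 17. Among the 2 was the fit without *Wnk1d/d* replicate 4 (limma adjusted p = 0.048, log2 fold change 0.59). *Lyve1* is also carried by some tissue macrophages. *Flt4* had 6.91, 5.61, 5.34 and 7.1 FPKM in the *Wnk1fl/fl* and 4.8, 7.69, 5.24, 4.51 and 6.01 FPKM in the *Wnk1d/d* uteri. For *Flt4*, *Wnk1d/d* replicates 1, 3 and 4 were below every control, replicate 5 was within the control range and replicate 2 was above it (log2 fold change -0.13, 95% interval -0.45 to 0.18, limma adjusted p = 0.51). *Prox1* was too low to be tested, at 0.38, 0.28, 0.22 and 0.73 FPKM in the controls and 0.59, 0.63, 0.57, 0.18 and 0.84 FPKM in *Wnk1d/d* uteri. The defining transcription factor of lymphatic endothelium was therefore near the lower limit of the table in both genotypes, and the label of a lymphatic signal rests on *Lyve1* and *Flt4*.

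Secreted proteins and enzymes included the largest decrease of any member tested. *Vwf*, on chr6:125546774-125686679, encodes von Willebrand factor, which endothelial cells store for clotting. *Vwf* had 38, 45.5, 40.1 and 39.2 FPKM in the *Wnk1fl/fl* and 11.8, 23.6, 15.6, 24.8 and 21 FPKM in the *Wnk1d/d* uteri. The genotypes were far apart, with a ratio of mean FPKM of 0.476 (log2 fold change -1.08, 95% interval -1.52 to -0.64, limma adjusted p = 0.0076; exact permutation p = 0.0079). *Mmrn2*, a matrix protein bound by CD93 and CLEC14A, had 26.8 ± 2.68 FPKM (SD, n = 4) in *Wnk1fl/fl* and 16.5 ± 5.65 FPKM (SD, n = 5) in *Wnk1d/d* uteri and was a lower DEG with an overlap through *Wnk1d/d* replicate 2 (log2 fold change -0.72, limma adjusted p = 0.041).

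*Egfl7*, a secreted guide of vessel formation, had 151 to 173 FPKM in *Wnk1fl/fl* and 70.4 to 133 FPKM in *Wnk1d/d* uteri, without overlap. It fell (log2 fold change -0.59, limma adjusted p = 0.041), but its ratio of means of 0.68 did not reach the fold criterion, so it was not a DEG. *Nos3*, the endothelial nitric oxide synthase, had 13.4 to 14.4 FPKM in *Wnk1fl/fl* and 5.19 to 12.2 FPKM in *Wnk1d/d* uteri, also without overlap, and did not pass (log2 fold change -0.55, limma adjusted p = 0.064). Exons of genes on the opposite strand, *Atg9b* among them, cover 32.3% of the exonic bases of *Nos3*, and exons of *Mir126a*, *Mir126b* and other entries share 9.4% of those of *Egfl7* on its own strand.

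The SD of the log2 values was larger among the *Wnk1d/d* libraries than among the controls in 31 of the 35 members, where 50.3% of all genes tested had the larger SD in *Wnk1d/d* uteri, and the exceptions were *Cldn5*, *Sox17*, *Plvap* and *Lyve1*. *Wnk1d/d* replicate 1 had the lowest *Wnk1d/d* value in 30 of the 35 members and replicate 2 the highest in 24. The median difference of the 35 members from the control mean was -1.12 on the log2 scale in *Wnk1d/d* replicate 1, -0.67 in replicate 3, -0.42 in replicate 5, -0.39 in replicate 4 and -0.13 in replicate 2. The controls were at -0.05 to 0.04 by the same measure, and the median over all tested genes was between -0.01 and 0.01 in every library. In *Wnk1d/d* replicate 2, 13 members lay within the range of the controls, compared with 2 to 6 in the other 4 *Wnk1d/d* libraries. These counts, and those of the lowest and highest library, were made for the members only. Without a share over all genes they cannot separate a trait of the members from one of the libraries. *Sox7*, *Lyve1*, *Sox17* and *Cd34* were the 4 members for which *Wnk1d/d* replicate 1 was above the control mean.

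**Figure D3:**
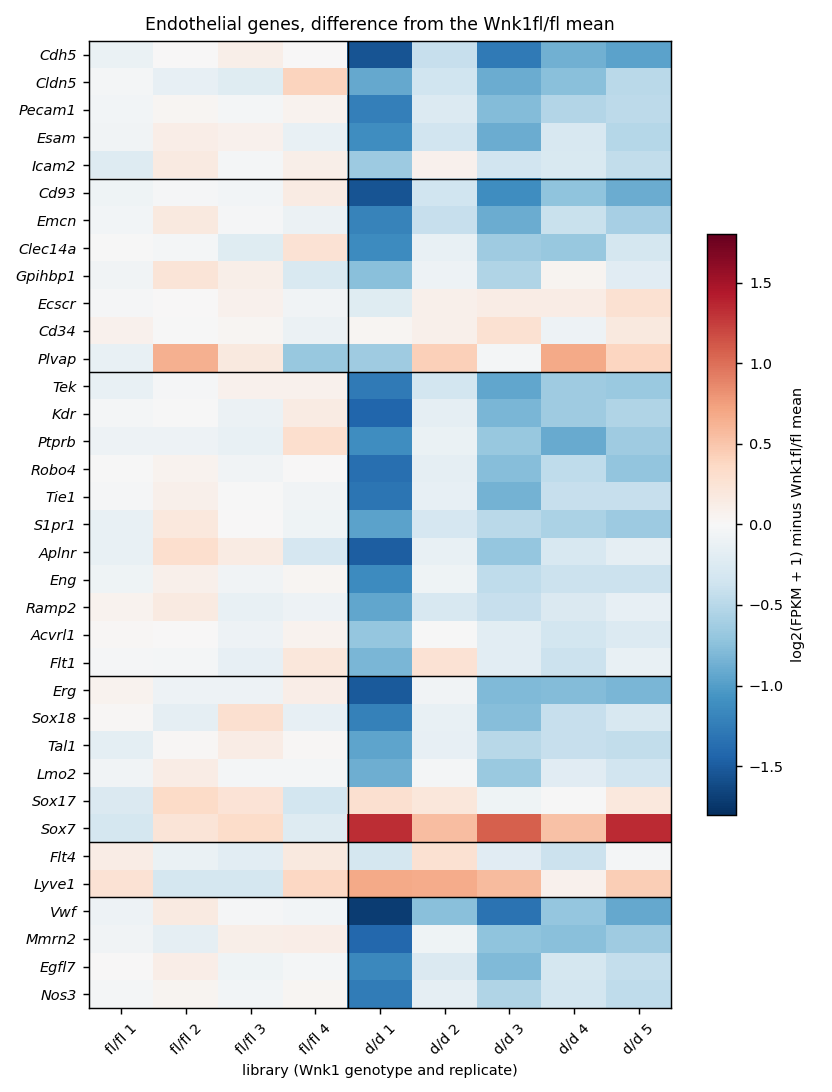
Difference of each library from the *Wnk1fl/fl* mean in log2(FPKM + 1), for the 35 tested members by role (black lines) and the 9 libraries; blue is lower and red higher. *Wnk1d/d* replicate 1 is darkest blue and replicate 2 palest (medians -1.12 and -0.13), and the *Sox7* row is red in all 5 *Wnk1d/d* libraries.

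Whether a member moved differently from the pan-endothelial junction genes was tested by subtracting, in each library, the mean log2 value of *Pecam1* and *Cdh5* from that of every gene. Against these 2 genes 83.5% of 14726 genes were relatively higher and 0.19% relatively lower by limma, with a median of 0.84, since the reference genes themselves fell. Among the other 33 members, 11 were relatively higher, 0 were relatively lower (0 also at an unadjusted p under 0.05), and 22 were not distinguished from the reference. In the first fit *Cdh5* fell more than any member but *Vwf*. Only *Vwf* and *Cd93* had estimates below the reference, so relatively lower calls were unlikely from the start. The largest relative increase was that of *Sox7*, 1.8 (95% interval 1.19 to 2.41, limma adjusted p = 0.00013), followed by *Lyve1*, 1.32 (95% interval 0.78 to 1.87, limma adjusted p = 0.0006). *Plvap*, *Sox17*, *Cd34* and *Ecscr* were relatively higher by 1, 0.95, 0.93 and 0.91, close to the median of all genes, and *Flt4* by 0.70 (95% interval 0.23 to 1.17, limma adjusted p = 0.0085).

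*Flt1* (0.58), *Acvrl1* (0.54), *Gpihbp1* (0.52) and *Icam2* (0.51) made up the rest, with adjusted p of 0.017 to 0.032, and kept that call in 14, 12, 10 and 10 of the 17 alternatives other than the replicate block. These estimates, and that of *Flt4*, were below the median of all genes. Among receptors, the *Flt1* to *Kdr* ratio of FPKM was 0.318 to 0.352 in the controls and 0.391 to 0.523 in *Wnk1d/d* uteri, and the *Tek* to *Tie1* ratio was 0.374 to 0.448 and 0.333 to 0.401. These ratios were also picked with values in view and carry no test. Members not distinguished from the junction genes included *Erg*, 0.04 (95% interval -0.40 to 0.48, limma adjusted p = 0.86), *Tek*, 0.06 (95% interval -0.36 to 0.48, limma adjusted p = 0.78), *Cd93*, -0.10 (95% interval -0.53 to 0.33, limma adjusted p = 0.65), and *Vwf*, -0.25 (95% interval -0.68 to 0.19, limma adjusted p = 0.27). Without *Wnk1fl/fl* replicate 3 or *Wnk1d/d* replicate 3 the count of relatively higher members was 7, where 73% and 75.6% of all genes were relatively higher. With library weights, 23 members were relatively higher, where 90.3% of all genes were, and *Vwf* was relatively lower (-0.19, adjusted p 0.036 by limma), where 0.801% were.

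**Figure D4:**
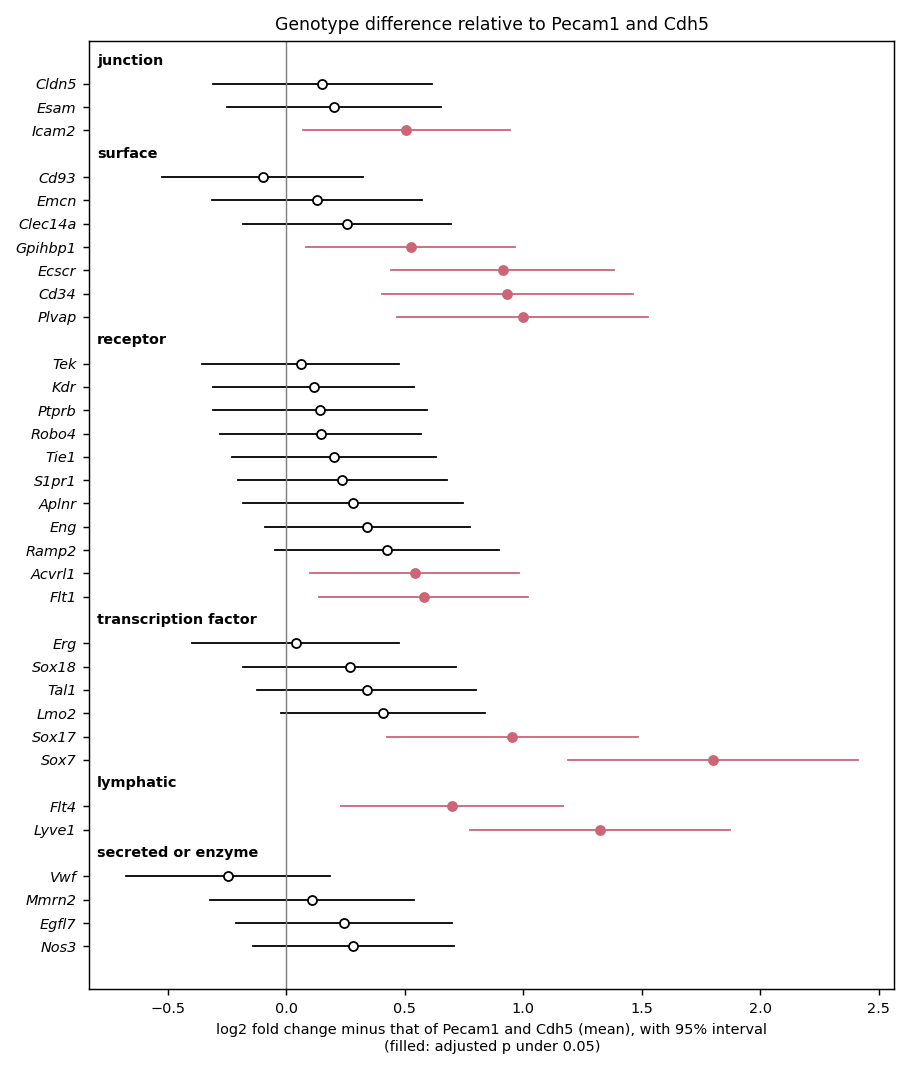
Genotype difference of 33 members relative to the mean of *Pecam1* and *Cdh5*, as a log2 difference with its 95% interval; filled points have a limma adjusted p under 0.05. *Sox7* (1.8) and *Lyve1* (1.32) lie furthest right, and *Cd93* and *Vwf* are the only points left of 0.

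A list of 37 other endothelial genes, not among the 36, had 35 tested, 12 lower DEGs, 0 higher DEGs and a median of -0.48 (limma, 3 higher at an unadjusted p under 0.05). Of all 14728 genes tested, 5662 were under that unadjusted p in either direction. *Klf2*, a flow-responsive transcription factor, fell (log2 fold change -0.83, limma adjusted p = 0.0027), as did *Fgd5*, a guanine nucleotide exchange factor of endothelium (log2 fold change -0.74, limma adjusted p = 0.0077), and *Gimap4* (log2 fold change -0.66, limma adjusted p = 0.011). *Cav1*, the caveolin gene that smooth muscle and adipose cells share, rose (log2 fold change 0.49, limma adjusted p = 0.01) without reaching the fold criterion. Of 8 further lymphatic genes 5 were tested, with a median of 0.10, and 1 of them, *Itga9*, was a higher DEG (log2 fold change 0.62, limma adjusted p = 0.014). The other 4 tested were not called by limma, with log2 fold changes of -0.01 to 0.16.

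Among 17 genes for ligands of these receptors, or for making or exporting them, 14 were tested and 2 were lower DEGs, with a median of -0.11. *Angpt2*, which is made by endothelium and modulates TEK, had 9.4, 5.48, 4.94 and 6.95 FPKM in the *Wnk1fl/fl* and 1.89, 3.08, 2.12, 3.11 and 2.57 FPKM in the *Wnk1d/d* uteri, without overlap (log2 fold change -1.09, limma adjusted p = 0.0055). *Adm*, the ligand of the receptor that holds RAMP2, also fell (log2 fold change -0.67, limma adjusted p = 0.017), as did *Vegfc*, the ligand of FLT4, below the fold criterion (log2 fold change -0.43, limma adjusted p = 0.042). *Spns2*, an exporter of sphingosine 1-phosphate, rose (log2 fold change 0.55, limma adjusted p = 0.0088) and likewise did not reach it. *Vegfa*, the ligand of KDR and FLT1, named with its value in view, had 58.7 ± 5.12 FPKM (SD, n = 4) in *Wnk1fl/fl* and 61 ± 9.23 FPKM (SD, n = 5) in *Wnk1d/d* uteri (log2 fold change 0.05, limma adjusted p = 0.8).

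Other cell types moved with genotype in the same libraries, and their part in the endothelial differences was not tested. All 8 smooth muscle markers rose as DEGs, with a median of 1.10 and a summed level of 2990 to 6728 FPKM in the controls and 7537 to 14190 FPKM in *Wnk1d/d* uteri, *Actg2* the most (log2 fold change 2.03, limma adjusted p = 0.0067), followed by *Cnn1* (log2 fold change 1.41, limma adjusted p = 0.011), and *Myh11* was at 488 ± 162 FPKM (SD, n = 4) in *Wnk1fl/fl* and 814 ± 152 FPKM (SD, n = 5) in *Wnk1d/d* uteri. Of 9 mural cell markers, which mark pericytes around vessels, 7 fell and 1 rose by the adjusted p, with 4 lower DEGs led by *Pdgfrb* (log2 fold change -0.84, limma adjusted p = 0.0055) and a median of -0.50. Their summed level was 301.1 to 359 FPKM in the controls and 278 to 363 FPKM in *Wnk1d/d* uteri. *Mcam*, which was not called (log2 fold change 0.38, limma adjusted p = 0.12), held a large part of it. *Mcam* had 118 to 193.6 FPKM in the controls and 162 to 233 FPKM in *Wnk1d/d* uteri, so the sum does not show the lower values of the markers that fell. Among 8 stroma markers 4 fell and 3 rose (summed 1927 to 2433 and 2316 to 2880 FPKM), and among 9 epithelium markers 1 rose (summed 1013 to 1612 and 1170 to 1673 FPKM).

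For leukocytes, of 12 markers 11 were tested and none was called by limma (2 lower at an unadjusted p under 0.05), with a median of -0.32 and a summed level of 136 to 281 FPKM in the controls and 122 to 177 FPKM in *Wnk1d/d* uteri. Beside the unadjusted counts of this paragraph, 5662 of all 14728 genes tested had an unadjusted limma p under 0.05. *Ptprc*, carried by nearly all leukocytes, had 17.8 ± 7.24 FPKM (SD, n = 4) in *Wnk1fl/fl* and 11.7 ± 2.31 FPKM (SD, n = 5) in *Wnk1d/d* uteri. Red cell genes, which follow the blood left in the tissue, were not called either (3 tested by limma, 0 at an unadjusted p under 0.05), with *Hbb-bs* at 34.1 to 77.5 FPKM in *Wnk1fl/fl* and 27.4 to 126 FPKM in *Wnk1d/d* uteri. Of 5 platelet genes 2 were tested and *Pf4* was a higher DEG (log2 fold change 0.82, limma adjusted p = 0.012). *Itga2b*, the other tested, was not called (log2 fold change 0.20, limma adjusted p = 0.13), and the rest were too low to be tested. The call in the platelet list thus rests on *Pf4* alone. Liver genes, 8 tested and 0 called by limma (1 lower and 1 higher at an unadjusted p under 0.05), had a summed level of 8.72 to 175 FPKM in the controls and 8.73 to 28.3 FPKM in *Wnk1d/d* uteri, and *Alb* had 77.7 FPKM in *Wnk1fl/fl* replicate 4 against 0.03 to 1.5 FPKM in the other libraries. In *Wnk1d/d* replicate 4 a single entry held 70.3% of the summed FPKM, while its median over tested genes was like that of the others (3.79 to 3.82 on the log2 scale). Without both of these libraries, a choice made after seeing the data, 4 members were lower DEGs, 2 were higher DEGs (*Sox7* and *Lyve1*) and the median was -0.54. Of all genes in that fit 2.71% were lower DEGs and 2.79% higher DEGs.

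**Figure D5:**
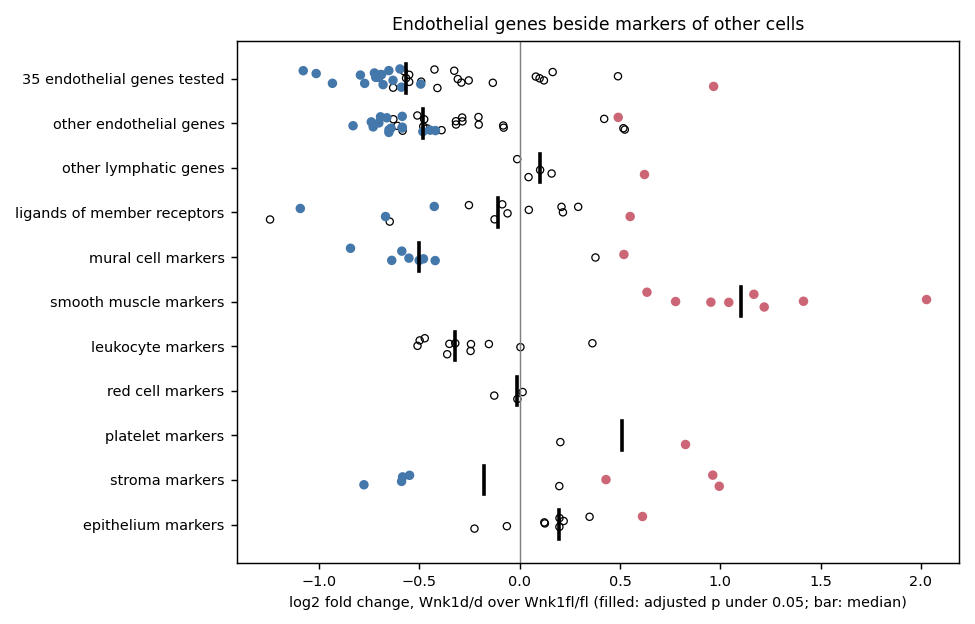
Log2 fold change of *Wnk1d/d* over *Wnk1fl/fl* for the 35 tested endothelial genes and for markers of other cells; each point is a gene, filled where the limma adjusted p is under 0.05, and the bar is the list's median. The endothelial and mural lists centre at -0.57, -0.48 and -0.50, the smooth muscle list at 1.10.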

How the data were processed

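Uterine RNA of 4 *Wnk1fl/fl* and 5 *Wnk1d/d* mice was sequenced as paired-end libraries. The authors aligned reads to mm10 with TopHat2 2.0.4 and deposited FPKM per gene for each library, made with Cufflinks 2.0.2 according to the submitters' processing notes. The gene annotation and the number of reads are not given in the sources used here, so depth is unknown and no counting intervals are given. Low values moved in steps, and in 17 such entries the estimated worth of 1 fragment differed at most 1.20-fold between libraries. These entries were kept only where their values were similar across libraries, so the figure cannot show a large difference in depth. The deposited table had 0 columns of no sample.

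From these FPKM, log2(FPKM + 1) was compared with limma 3.58.1 in R 4.3.3 (lmFit, eBayes with trend, two-sided), over the 14728 genes whose mean exceeded 1 FPKM in either genotype, with Benjamini-Hochberg adjustment over them. Fold changes on this scale understate changes of low genes. A second fit subtracted the mean log2 value of *Pecam1* and *Cdh5* in each library. Exact permutation tests (two-sided, unadjusted, over 126 splits, SciPy 1.17.1, NumPy 2.4.6, pandas 2.3.3, Python 3.11.15) cannot go below 0.0079. The limma step was tested on simulated data. Each mouse gave 1 library, and p-values measure the spread between mice.

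The members and lists were chosen with earlier results of these data known. All 36 members are named, and from other lists at most 4 genes with the smallest p, some markers and *Wnk1*. *Vegfa*, *Pgf* and *Mcam* are outside this rule. Older symbols in the table were matched through RefSeq synonyms. Coordinates are from GENCODE release M21 on mm10. Alternatives were a pseudocount of 0.1, no filter, a filter at a mean of 5 FPKM, library weights, limma without trend, quantile normalization, median scaling, a replicate block and leaving out each library, and, added after seeing the data, leaving out both replicates numbered 4. The genotypes share replicate numbers in the titles, but these are different mice. The names of the deposited columns share no number between the genotypes, so the replicate block rests on the titles alone.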

Additional observations from a re-analysis of the deposited data

Results flagged for a closer look

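Of 74 groups of 4 or 5 libraries in which a member or *Wnk1* was examined for a library far from the rest, 1 was singled out. *Ptprb*, the endothelial tyrosine phosphatase, had 12.1 FPKM in *Wnk1fl/fl* replicate 4, whereas the other controls had 8.62 to 8.95 FPKM, so the gap took up 0.89 of the group's range. Chance alone would single out about 1 in 20 groups.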

How the results depend on the processing

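Over the single-gene results, 1091 of 1258 values under an alternative kept their direction and their side of the threshold, 118 lost the call, 40 gained one and 9 changed sign. The sign changes were of estimates near 0: *Plvap* was -0.06 without *Wnk1fl/fl* replicate 4 and -0.19 without both replicates numbered 4; *Ecscr* was -0.012 and *Cd34* -0.041 under quantile normalization; and *Erg* relative to *Pecam1* and *Cdh5* was -0.030 with a pseudocount of 0.1, -0.064 with library weights, -0.0017 without *Wnk1fl/fl* replicate 3, and -0.020 and -0.009 without *Wnk1d/d* replicates 2 and 3. Leaving out 1 library or both replicates numbered 4 gave -0.19 to 0.38 for *Plvap* and -0.020 to 0.097 for relative *Erg*. The 16 members that fell by adjusted p became 10 without a filter, where more genes were tested. Leaving out 1 library gave 6 to 20 lower DEGs, 1 to 2 higher DEGs (2 without *Wnk1d/d* replicate 4), 7 to 24 members lower and 1 to 2 higher by adjusted p (7 lower without *Wnk1fl/fl* replicates 1, 2 or 4 or *Wnk1d/d* replicate 3, 9 without *Wnk1fl/fl* replicate 3 or *Wnk1d/d* replicate 5, 24 without *Wnk1d/d* replicate 2), and 7 to 14 relatively higher members. Of all genes, 73% to 89.4% were relatively higher in the fits without 1 library. Without both replicates numbered 4 the counts of members were 4 lower and 2 higher DEGs, 4 lower and 2 higher by adjusted p, and 7 relatively higher, where 73.7% of all genes were. Library weights, whose estimation stopped before full convergence, gave 23 relatively higher members and 1 relatively lower. With the replicate block, to which *Wnk1d/d* replicate 5 adds nothing for want of a partner, 0 members were lower and 0 higher DEGs, and 0 lower and 0 higher by adjusted p (limma; lowest adjusted p 0.052), while the median was -0.63 and 8 members were relatively higher. Over all genes the replicate block called 86 lower and 132 higher DEGs, where the fit without it called 763 and 750. With the block 80.9% of all genes were relatively higher. Libraries with the same number had correlations of -0.27 to 0.02 in their deviations from the group means over the 4 pairs, and 0 of the 4 controls correlated best with its own number. Such correlations over 4 pairs cannot show whether libraries shared a day or batch. Absolute depth is unknown, so what it limits in low genes such as *Prox1* was not examined.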
